A study of Mus musculus with 60 samples.

Results

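The genes described here carry, make, break down or bind retinoic acid: Stra6, Rdh10, Aldh1a2, Crabp1, Crabp2, Cyp26a1, Rara, Rarb and Rarg. They were picked by exact gene symbol in the platform annotation, which gave 11 probe sets for the 9 genes, of 45137 probe sets and 18193 named genes on a pair of mouse arrays, MOE430A and MOE430B. Of the genes tested, Crabp2 and Cyp26a1 differed most between strains, by 2.08 on the log2 scale for Crabp2 and, with signals under the detection floor raised to it, by 1.74 for Cyp26a1. Cyp26a1 was lower in 3 of the 4 sublines than in their parent P19CL6, while Crabp2 was higher in one of these sublines, lower in another and not shown to differ in the rest. The fall of Cyp26a1 in subline CL6G45 and the rise of Crabp2 in subline CL6G36 no longer passed without certain single arrays or without quantile normalization.

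All groups were undifferentiated, untreated mouse embryonal carcinoma cells, the pluripotent stem cells of teratocarcinomas. CL6G26, CL6G36, CL6G45 and CL6G52 are sublines of P19CL6; P19CL6 is a substrain of P19; P19, the line all the others go back to, came from a male C3H embryo according to the labels. Each strain had 5 samples labelled as biological replicates on each array type, which makes 60 arrays. The labels do not say what the sublines were selected for, whether each is 1 clone, or whether replicates were separate cultures, so p-values reflect only how far these samples scatter, which may be partly technical.

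Retinoic acid is made from retinol in 2 oxidations. Rdh10 carries out the first, to retinaldehyde, and Aldh1a2 the second, to retinoic acid; Stra6 is a membrane receptor that takes retinol up from its carrier in plasma. Inside the cell Crabp2 brings retinoic acid to the nuclear receptors, Crabp1 binds it in the cytoplasm, and Cyp26a1 oxidises it to products that are cleared. The receptors Rara, Rarb and Rarg bind DNA with a retinoid X receptor, at repeats of a short core motif, and P19 cells are widely used because retinoic acid turns them towards neural or mesodermal fates. Cyp26a1 and Rarb are themselves textbook targets of the receptors.

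The promoter windows of these 2 targets are shown because they hold repeats of that motif. The sequences are RefSeq's for GRCm38.p6, each covering 250 bases before to 50 after a transcript start, written along the gene's strand; capitals mark 2 copies of the core motif with the 5 bases between them. The Cyp26a1 window lies at chr19:37697558-37697857 on the plus strand and the Rarb window at chr14:16575427-16575726 on the minus strand.
Cyp26a1: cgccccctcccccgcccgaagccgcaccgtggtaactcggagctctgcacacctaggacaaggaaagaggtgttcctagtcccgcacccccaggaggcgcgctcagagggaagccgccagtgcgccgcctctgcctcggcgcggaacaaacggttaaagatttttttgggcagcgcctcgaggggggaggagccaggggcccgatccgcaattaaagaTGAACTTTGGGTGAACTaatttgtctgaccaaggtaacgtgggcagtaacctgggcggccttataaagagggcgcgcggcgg
Rarb: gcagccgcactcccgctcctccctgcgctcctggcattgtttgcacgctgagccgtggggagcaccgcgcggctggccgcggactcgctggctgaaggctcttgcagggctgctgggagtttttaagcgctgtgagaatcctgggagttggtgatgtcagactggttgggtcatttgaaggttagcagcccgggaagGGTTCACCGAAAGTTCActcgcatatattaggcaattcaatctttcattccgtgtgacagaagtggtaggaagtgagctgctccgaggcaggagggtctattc
The search looked on both strands for 2 copies of AGNTCA in the same direction with 5 or 2 bases between them. Promoter windows were at hand for 7 of the 9 genes, 14 windows in all, and Crabp2 and Rdh10 had none. With 5 bases between the copies, the Cyp26a1 window held a match at its bases 219 to 235, on the strand opposite to the one printed, where it reads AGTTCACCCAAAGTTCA. That form occurred in 67 of 32851 windows of all genes, or 0.204%. With the first letter of the motif set free (NGNTCA, a form chosen after the first search was seen, which includes every AGNTCA match), the Rarb window matched too, at bases 198 to 214 on the printed strand, and the share of all windows was 0.861%. With 2 bases between the copies neither form matched a window of these genes; AGNTCA did so in 0.107% of all windows and NGNTCA in 1.11%. A single AGGTCA stood in 16.3% of all windows on either strand, and among these genes in windows of Rara and Rarg. A match describes the letters only.

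Array medians ran from 30.2 to 53.4 signal units on MOE430A and from 10.6 to 16.5 on MOE430B before normalization; how precise the values are depends on the number of arrays. Over the 1000 most variable MOE430A probe sets, 3 arrays were closer to another strain than to their own: P19 replicates 4 and 5 were nearest to P19CL6 (correlations of 0.424 and 0.275, against 0.087 and 0.085 with the other P19 arrays), and CL6G52 replicate 1 was nearest to CL6G45 (0.393, against -0.068 with its own strain). For some of the named results on which these arrays bear, the value without them is given too. For other CL6G52 results, those of Egr1, Rara and Rdh11 among them, only the change with all arrays is given. Of the 10 embryonal carcinoma markers examined, Dppa5a was above the detection floor on 11 of 30 MOE430A arrays. The others, Pou5f1 and Sox2 among them, were above it on all 30. The summed signal of the 10 was 10500 to 13100 on every MOE430A array. In the lists for other cell types, Myh6, Myl7 and Tnnt2 of heart, Sox7 and Ttr of endoderm, Col3a1, Postn and Pdgfrb of fibroblasts and Neurog1 of neurons lay under the detection floor on every MOE430A array, though Tnnt2 was above that of MOE430B on 19 of 30. Other markers on these lists were measured on all 30 arrays, namely Nefl, Stmn2, Tubb3 and Nefm of neurons, Dab2 of endoderm, and Col1a2 and Thy1 of fibroblasts. Of the heart list, Nkx2-5 was above the MOE430A floor on 29 arrays, Actc1 on 22 and Mesp1 on 19. Of the endoderm list, Gata6 was above it on 29 and Gata4 on 19. The summed neural signal was 1050 to 1530, and the sums were 97.5 to 179 for heart, 116 to 202 for endoderm and 72.4 to 191 for fibroblasts. The Gapdh 3'/5' signal ratio, a measure of RNA integrity, was 0.829 to 0.883 in CL6G26, 0.795 to 0.927 in CL6G36 and CL6G45, 0.781 to 0.856 in CL6G52, 0.835 to 0.887 in P19CL6 and 0.908 to 0.954 in P19 on MOE430A; its part in the differences was not tested.

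Levels below are log2 of the quantile-normalized MOE430A signal, and the floor stood at 4.61. Of the 9 genes, 7 had a probe set that exceeded the floor on 5 or more of the 30 arrays and were tested. Stra6 was above it on 2 arrays and Aldh1a2 on 0, so neither was tested. A limma moderated F test over the 6 strains gave an adjusted p under 0.05 for 5 of the 7 tested genes, beside 45.9% of the 8906 genes read on MOE430A. These were Cyp26a1 (adjusted p 1.49e-06), Crabp2 (6.37e-06), Rara (8.63e-06), Rdh10 (0.000361) and Rarg (0.0238); Crabp1 (0.307) and Rarb (0.771) did not pass.

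**Figure D1:**
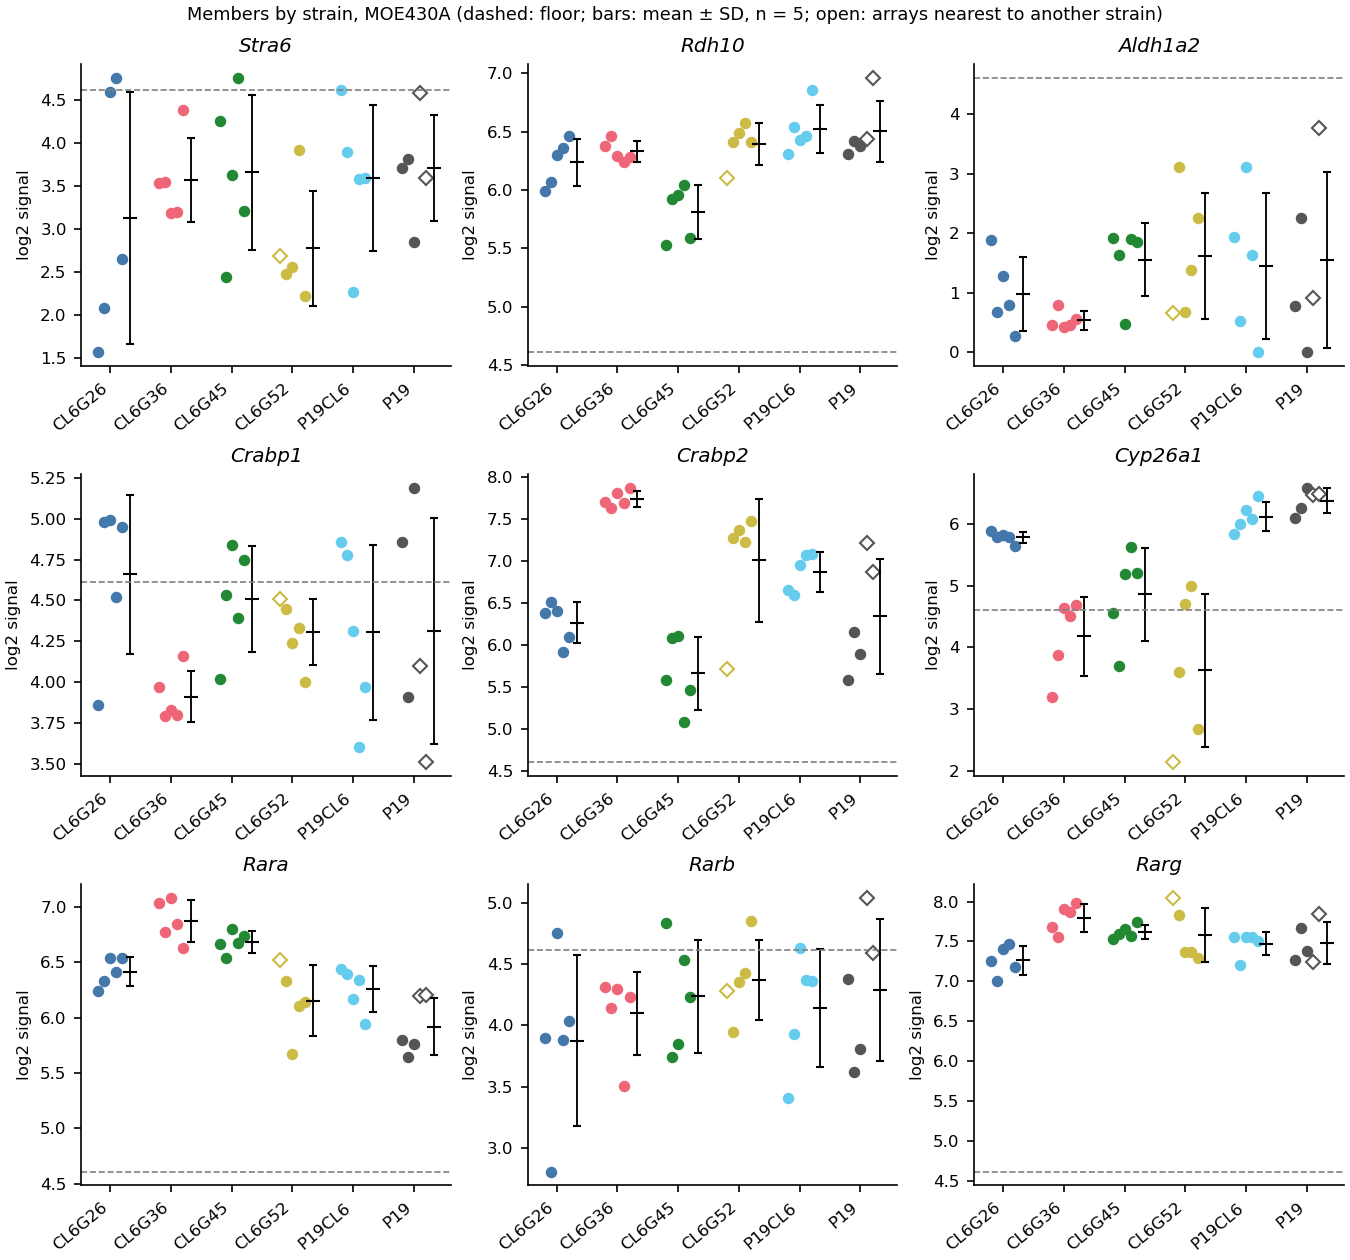
Log2 signal of the 9 genes on every MOE430A array, by strain, with the mean ± SD of 5 arrays beside the points. The dashed line is the floor at 4.61, and open diamonds mark P19 replicates 4 and 5 and CL6G52 replicate 1. Cyp26a1 points reach or cross the floor in CL6G36, CL6G45 and CL6G52 while all P19CL6 and P19 points lie above 5.8, and the Crabp2 diamonds lie away from the other arrays of their strains.

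Stra6 ranged from 1.57 to 4.75 over the 30 arrays and its strain means from 2.77 in CL6G52 to 3.71 in P19, all under the floor. Aldh1a2 ranged from 0 to 3.77, under the floor throughout, so the arrays give only an upper bound for its RNA. The activity of the enzyme was not measured.

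Rdh10 was lower in CL6G45 than in the other 5 strains. Its 5 arrays read 5.53, 5.92, 5.96, 6.04 and 5.59 in CL6G45, against 6.31, 6.54, 6.43, 6.46 and 6.86 in P19CL6. No CL6G45 array reached the lowest P19CL6 array; in bulk RNA, fewer expressing cells and less RNA per cell cannot be told apart. The change was -0.71 ± 0.13 on the log2 scale (SE), 1.64-fold lower, with an adjusted p of 0.000222; on the deposited scaling, without quantile normalization, the call was lost. CL6G45 was also lower than P19 (-0.69, adjusted p 0.000112), CL6G36 (-0.52, 0.0155) and CL6G26 (-0.43, 0.021), and CL6G52 was higher than CL6G45 by 0.59 (0.00226). These calls too were lost on the deposited scaling; that against CL6G36 was also lost without CL6G45 replicate 1 or 5, and that against CL6G26 without either of these or without CL6G26 replicate 4 or 5. The other strains had means of 6.23 (CL6G26), 6.33 (CL6G36), 6.40 (CL6G52), 6.52 (P19CL6) and 6.50 (P19), and no pair of them passed. A second Rdh10 probe set, 1460632_at on MOE430B, passed in no pair; there CL6G45 averaged 4.53 and P19CL6 4.92, a change of -0.39 ± 0.29 (adjusted p 0.647).

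Of the carriers, Crabp2 was highest in CL6G36 and lowest in CL6G45. The CL6G36 arrays read 7.70, 7.63, 7.81, 7.69 and 7.87, the CL6G45 arrays 5.58, 6.08, 6.11, 5.08 and 5.47, and the P19CL6 arrays 6.65, 6.59, 6.95, 7.07 and 7.08. These 3 strains did not overlap. CL6G36 exceeded P19CL6 by 0.87 ± 0.27 (1.83-fold, adjusted p 0.0222), a call that was lost on the deposited scaling and without P19CL6 replicate 1 or replicate 2. CL6G45 was 2.31-fold lower than P19CL6, a change of -1.21 ± 0.27 (0.00187). Between these sublines, CL6G45 lay -2.08 ± 0.27 from CL6G36, a 4.22-fold difference (4.32e-06). CL6G36 also exceeded P19 by 1.40 (0.000148) and CL6G26 by 1.48 (0.000188), and both calls held in every alternative tried. CL6G45 passed against neither P19 (-0.68, 0.0524) nor CL6G26 (-0.60, 0.128).

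CL6G52 gave Crabp2 values of 5.71, 7.27, 7.37, 7.23 and 7.47. Replicate 1, the array nearest to CL6G45 over all variable probe sets, lay inside the CL6G45 range and the other 4 lay above every P19CL6 array. With all arrays the change from P19CL6 was 0.14 ± 0.27 (adjusted p 0.841); without replicate 1 it was 0.47 ± 0.23 (0.237). CL6G52 exceeded CL6G45 by 1.35 ± 0.27 (2.55-fold, adjusted p 0.000959). Against CL6G26, CL6G52 stood higher by 0.75 (0.105), or by 1.07 without replicate 1 (0.00243). CL6G26 itself read 6.38, 6.51, 6.41, 5.92 and 6.10, every array below the lowest P19CL6 array; its change of -0.61 ± 0.27 had an adjusted p of 0.344, and 0.0214 without the 3 arrays that stood apart, when the pooled spread was smaller.

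The P19 arrays divided into separate levels for Crabp2. P19CL6 averaged 6.87 ± 0.23 and P19 6.34 ± 0.68 (SD, n = 5 each). P19 replicates 1, 2 and 3 read 5.58, 6.15 and 5.89, below every P19CL6 array, and replicates 4 and 5 read 7.21 and 6.87, within or above the P19CL6 range. The change of P19CL6 over P19 was 0.53 ± 0.27 (adjusted p 0.242) with all arrays and was 2.00-fold without P19 replicates 4 and 5 (0.00562). In descending order the strain means were CL6G36 7.74, CL6G52 7.01, P19CL6 6.87, P19 6.34, CL6G26 6.26 and CL6G45 5.66, and no neighbours in that order passed the test with all arrays.

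Crabp1, the other cytoplasmic carrier, was near the floor. It was above it on 9 of 30 arrays, with strain means from 3.91 in CL6G36 to 4.66 in CL6G26, and passed in no pair of strains. Its strain SDs of 0.15 to 0.69 were of the same size as the differences between means.

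Cyp26a1, the enzyme that clears retinoic acid, was lower in CL6G36, CL6G45 and CL6G52 than in P19CL6. CL6G36 arrays read 3.20, 3.88, 4.63, 4.51 and 4.69, with 2 of 5 above the floor. CL6G45 arrays read 4.56, 3.70, 5.19, 5.63 and 5.20, with 3 above it. CL6G52 arrays read 2.15, 3.60, 4.71, 4.99 and 2.69, with 2 above it. P19CL6 arrays read 5.83, 5.99, 6.22, 6.08 and 6.45 and P19 arrays 6.09, 6.25, 6.58, 6.46 and 6.48, all above the floor. No array of these 3 sublines reached the lowest P19CL6 or P19 array.

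The change in Cyp26a1 from P19CL6 was -2.48 ± 0.38 in CL6G52 (5.59-fold lower, adjusted p 8.38e-05), -1.93 ± 0.38 in CL6G36 (3.81-fold, 0.000476) and -1.26 ± 0.38 in CL6G45 (2.39-fold, 0.0208). Signals under the floor carry little order, and with each raised to the floor the changes were -1.40 (2.65-fold), -1.48 (2.79-fold) and -1.06 (2.09-fold), all with adjusted p under 0.05. Without CL6G52 replicate 1 the CL6G52 change was -2.11 (4.33-fold, 0.000275). The CL6G45 call was lost on the deposited scaling and without P19CL6 replicate 5 or CL6G45 replicate 2. Against P19 the changes were -2.74 in CL6G52 (1.33e-05), -2.19 in CL6G36 (4.34e-05) and -1.51 in CL6G45 (0.00256), or -1.66, -1.74 and -1.32 with signals raised to the floor, all of which passed.

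CL6G26 kept Cyp26a1 above the floor on every array. Its values of 5.88, 5.79, 5.81, 5.78 and 5.64 averaged 5.78 ± 0.09, against 6.11 ± 0.23 in P19CL6 (SD, n = 5 each), a change of -0.33 ± 0.38 with an interval of -1.11 to 0.44 (adjusted p 0.808). Relative to CL6G26, Cyp26a1 changed by -1.60 in CL6G36 (0.00316) and by -2.15 in CL6G52 (0.000449), while the CL6G45 difference of -0.92 did not pass (0.0972). With signals raised to the floor these changes were -1.15, -1.07 and -0.73, and all 3 passed, CL6G45 with an adjusted p of 0.000752; CL6G45 passed also with an offset added to the signals and with only the 2 strains compared. Among the 3 low sublines, CL6G52 was 2.34-fold lower than CL6G45 (-1.23, 0.0267), but with values raised to the floor the difference was -0.34 (0.12). The call was also lost on the deposited scaling and without any 1 of CL6G52 replicates 1, 2 and 5 or CL6G45 replicates 3, 4 and 5. P19CL6 differed from P19 by -0.26 ± 0.38 (0.741). In descending order the means were P19 6.37, P19CL6 6.11, CL6G26 5.78 and CL6G45 4.86, with CL6G36 and CL6G52 under the floor and so in no order, and none of these neighbours passed with the signals as measured.

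**Figure D2:**
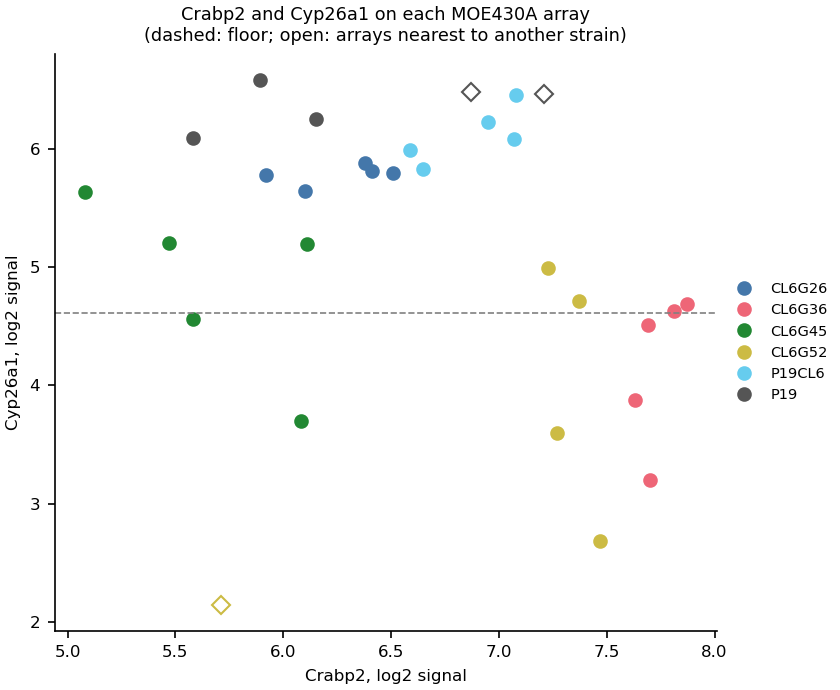
Log2 signal of Crabp2 (horizontal) and Cyp26a1 (vertical) on each of the 30 MOE430A arrays, coloured by strain, with the floor of Cyp26a1 dashed at 4.61. CL6G36 lies at high Crabp2 and low Cyp26a1, CL6G45 at low Crabp2 and intermediate Cyp26a1, and the open diamonds (P19 replicates 4 and 5, CL6G52 replicate 1) lie apart from their strains along Crabp2.

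The sublines with low Cyp26a1 thus did not share a Crabp2 level, CL6G45 lying under CL6G36 and CL6G52. The difference of CL6G52 from CL6G36 was -0.73 and did not pass with all arrays (adjusted p 0.0597). The CL6G52 mean includes replicate 1, at 5.71. CL6G36 averaged 7.74 for Crabp2 with a Cyp26a1 mean of 4.18, CL6G45 averaged 5.66 with a Cyp26a1 mean of 4.86, and CL6G52 averaged 7.01 with a Cyp26a1 mean of 3.63. Of the 10 embryonal carcinoma markers, Nanog fell in these 3 sublines against P19CL6, with changes of -1.10 in CL6G36, -1.02 in CL6G45 and -0.66 in CL6G52, and Tdgf1 fell by 0.37, 0.35 and 0.54. Utf1 rose by 0.55 in CL6G36 and 0.68 in CL6G45, Dnmt3b rose by 0.38 in CL6G45, and the other 6, Pou5f1 and Sox2 among them, passed in none of the 3. Of the 5 neuronal markers tested, 2 fell in each of these 3 sublines. Nefl changed by -1.30 in CL6G36, -0.96 in CL6G45 and -1.43 in CL6G52, while Stmn2 rose by 0.74 in CL6G36 and 0.50 in CL6G52. Nefm averaged 6.13 in CL6G36, 6.17 in CL6G45 and 6.04 in CL6G52, against 6.59 in P19CL6. Map2, read on MOE430B, averaged 2.22, 3.41 and 4.06 in these sublines and 3.58 in P19CL6, all under the floor of 4.15 there. The heart marker Actc1 fell in all 4 sublines, CL6G26 included, by 0.63 to 0.97. The part of these genes in the Cyp26a1 difference was not tested.

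Among the receptors, Rara was higher in CL6G36 and CL6G45. The CL6G36 arrays read 7.03, 6.77, 7.08, 6.84 and 6.63, the CL6G45 arrays 6.66, 6.54, 6.80, 6.67 and 6.73, and the P19CL6 arrays 6.44, 6.39, 6.17, 6.34 and 5.94. Neither subline overlapped P19CL6. The changes were 0.62 ± 0.13 in CL6G36 (1.53-fold, adjusted p 0.00129) and 0.42 ± 0.13 in CL6G45 (1.34-fold, 0.0265). Both calls were lost on the deposited scaling, and that in CL6G45 also without P19CL6 replicate 3 or 5 or CL6G45 replicate 3 or 5. Against P19 the changes were 0.95 in CL6G36 (2.02e-06) and 0.76 in CL6G45 (5.57e-05), and both calls held in every alternative tried.

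In CL6G52 the Rara mean was 6.15, against 6.87 in CL6G36 (a change of -0.72, adjusted p 0.000302) and 6.68 in CL6G45 (-0.53, 0.00679), both calls lost on the deposited scaling. CL6G26 averaged 6.41 and did not pass against P19CL6, but passed against P19 with a change of 0.49 (0.0132), a call lost without P19 replicate 2. P19CL6 averaged 6.26 ± 0.20 and P19 5.92 ± 0.26 (SD, n = 5 each), a change of 0.34 ± 0.13 (0.126). P19 replicates 1, 2 and 3 read 5.80, 5.64 and 5.76, below every P19CL6 array, and replicates 4 and 5 read 6.19 and 6.20, inside the P19CL6 range; without those 2 the change was 0.52 ± 0.14 (0.00683). No strains next to each other in the order of Rara means passed.

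Rarg, the third receptor, was above the floor on all 30 arrays with both its probe sets, whose strain means spanned 0.54 and 0.75. Strain means on the brighter probe set, 1419415_a_at, were 7.80 in CL6G36, 7.62 in CL6G45, 7.58 in CL6G52, 7.48 in P19CL6, 7.48 in P19 and 7.26 in CL6G26. On that probe set 1 of the 15 pairs of strains passed: CL6G36 exceeded CL6G26 by 0.54 ± 0.13 (1.45-fold, adjusted p 0.00372), a call lost on the deposited scaling. The second probe set, 1419416_a_at, had an adjusted p of 0.00189 in the F test. There CL6G36 exceeded P19 by 0.75 and CL6G26 by 0.59 (adjusted p 0.000482 and 0.00828 in the fit with signals raised to the floor). On the second CL6G36 also exceeded P19CL6, by 0.47 ± 0.16 (0.0318), whereas on the first the change was 0.33 ± 0.13 (0.0822). CL6G45 exceeded P19 by 0.59 on the second (0.00382) and by 0.14 on the first (0.441). Rarb stood above the floor on 5 of 30 arrays, with strain means from 3.87 in CL6G26 to 4.37 in CL6G52, and passed in no pair; in CL6G26 its change from P19CL6 was -0.26, with an interval of -0.93 to 0.40.

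**Figure D3:**
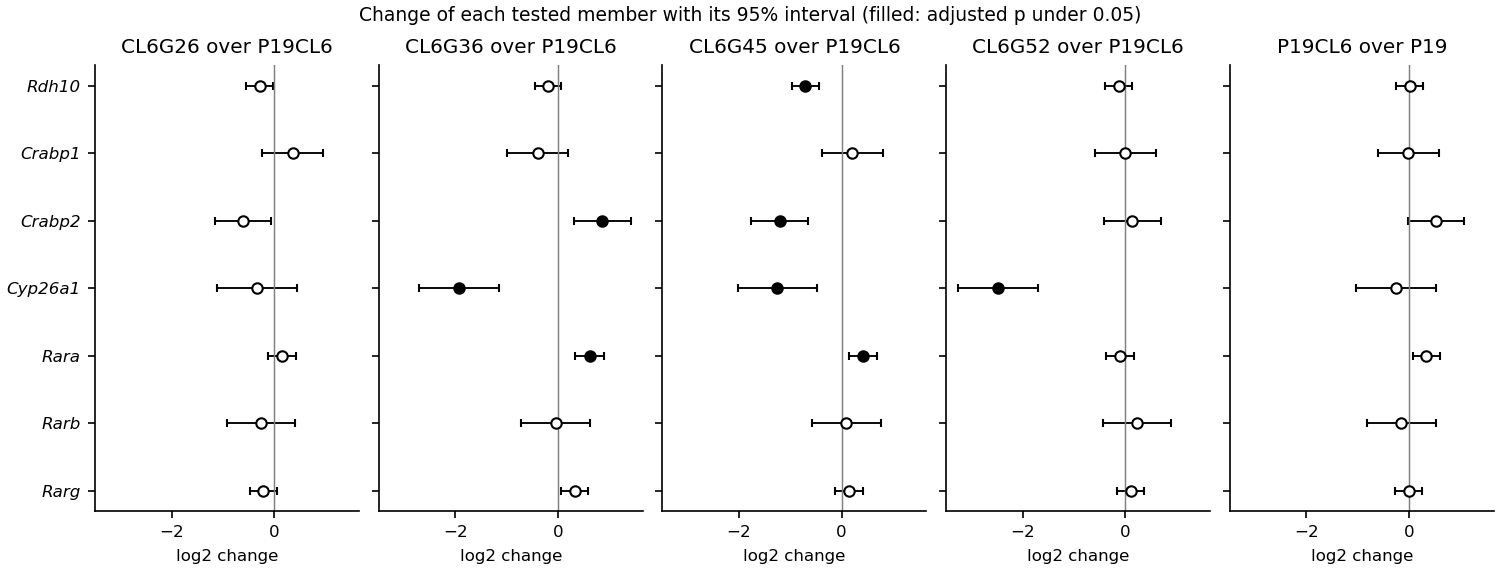
Log2 change of the 7 tested genes in each subline over P19CL6 and in P19CL6 over P19, with 95% intervals; filled points have an adjusted p under 0.05. Filled points are Crabp2, Cyp26a1 and Rara for CL6G36, the same genes and Rdh10 for CL6G45, and Cyp26a1 for CL6G52, and none for CL6G26 or for P19CL6 over P19.

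By comparison, 3 of the 7 tested genes passed in CL6G36 against P19CL6 (18.6% of all genes read on MOE430A did), 4 in CL6G45 (18.1%), 1 in CL6G52 (4.46%) and 0 in CL6G26 (1.72%), where 2 had an unadjusted p under 0.05. Without CL6G52 replicate 1 the CL6G52 count was again 1, beside 6.78% of all genes. Between P19CL6 and P19, 0 passed in the limma test (6.25% of all genes), with 1 under an unadjusted p of 0.05; without P19 replicates 4 and 5, Crabp2 and Rara passed, beside 25.7% of all genes. The median absolute log2 change of the 7 genes was 0.39 in CL6G36 and 0.42 in CL6G45, beside 0.19 and 0.18 over all genes, 0.12 in CL6G52, beside 0.13, 0.28 in CL6G26, beside 0.12, and 0.15 in P19CL6 against P19, beside 0.15. The CL6G36 median is the change of Crabp1, which was under the floor on every CL6G36 array. With signals raised to the floor that Crabp1 change was -0.08. Among the sublines, Crabp2 and Rdh10 passed in CL6G45 against CL6G36 (4.15% of all genes), Rara in CL6G52 against CL6G36 (18%), and Crabp2, Cyp26a1, Rara and Rdh10 in CL6G52 against CL6G45 (15.4%). The 4 comparisons with P19CL6 share its 5 arrays. The genes, and the lists below, were chosen with earlier results of these data known. Their counts and medians beside those of all genes are therefore no test of the set.

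Other genes of retinoid metabolism and transport were read from a list of 28, of which 13 were tested. Dhrs3, which reduces retinaldehyde back to retinol, had its lowest mean in P19CL6. It read 4.81, 4.68, 4.83, 3.35 and 4.18 there, 3 of 5 arrays above the floor, against 5.89, 6.06, 5.87, 5.29 and 4.45 in P19. The change of -1.14 ± 0.26 (adjusted p 0.0134) was lost without any 1 of P19 replicates 1, 2 and 3, and was -1.57 without P19 replicates 4 and 5. In CL6G26 it read 5.62, 4.83, 5.49, 5.27 and 5.66 and stood 1.01 ± 0.26 above P19CL6 (0.0416), and in CL6G36 5.08, 5.33, 5.28, 5.04 and 5.22, 0.82 ± 0.26 above it (0.0275). With values raised to the floor neither subline passed (0.0602 and 0.0715), and both calls were lost without P19CL6 replicate 4 or 5, the first also without any 1 of CL6G26 replicates 1, 3, 4 and 5, the other also without CL6G36 replicate 2 or 3. All 3 Dhrs3 calls were lost on the deposited scaling. The same list held 2 further changes: Fabp5, a fatty acid binding protein that also carries retinoic acid, fell by 0.44 in CL6G26 (0.00116), and Rdh11, which interconverts retinol and retinaldehyde, fell by 0.54 in CL6G52 (0.00707); neither held on the deposited scaling. In CL6G45, 0 of the 13 passed by limma (18.1% of all genes did), with 1 at an unadjusted p under 0.05. With all arrays, 1 rose and 1 fell in CL6G26 (0.606% and 1.11% of all genes). In CL6G36 1 rose (9.36% rose, 9.23% fell), and in CL6G52 1 fell (1.91% rose, 2.55% fell). Between P19CL6 and P19, 1 fell (3.58% rose, 2.67% fell). The list's median change lay between -0.09 in CL6G36 and 0.16 in P19CL6 against P19. Without P19 replicates 4 and 5 and CL6G52 replicate 1, 2 rose and 1 fell in CL6G52 (3.99% and 5.81% of all genes) and likewise in P19CL6 against P19 (14.8% and 13%).

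Of 24 receptor partners and coregulators, 20 were tested, among them the partners Rxra, Rxrb and Rxrg, which passed in none of the 5 comparisons. Against P19CL6, 3 rose and 2 fell in CL6G36 (9.36% and 9.23% of all genes did), 2 rose in CL6G45 (8.9% rose, 9.17% fell), 1 rose and 1 fell in CL6G52 (1.91% and 2.55%), and 1 fell in CL6G26 (0.606% rose, 1.11% fell). Ncoa1, a coactivator of nuclear receptors, had medians of 6.75 in CL6G36 and 6.39 in CL6G45, against 5.96 in P19CL6, without overlap, with changes of 0.79 (adjusted p 0.000115) and 0.52 (0.00814). Nr6a1, an orphan receptor that represses Pou5f1 when stem cells differentiate, rose by 0.50 in CL6G36 (0.0169), 0.54 in CL6G45 (0.0111) and 0.63 in CL6G52 (0.0109). Tbl1x, a subunit of the corepressor complex, fell by 0.50 in CL6G36 (0.000152) and by 0.34 in CL6G52 (0.0235). In CL6G36 Crebbp, an acetyltransferase coactivator, fell by 0.35 (0.0132) and Med25, a Mediator subunit, rose by 0.24 (0.0318). Nrip1, a corepressor that retinoic acid induces, fell by 0.64 in CL6G26 (0.00803). Between P19CL6 and P19, 1 of the 20 rose and 3 fell (3.58% and 2.67% of all genes): Nrip1 at 0.47, and Med1 at -0.80, Nr2f6 at -0.35 and Tbl1x at -0.32, each lost without any 1 of P19 replicates 1, 2 and 3. Nrip1, Nr2f6 and Tbl1x were lost there also without single P19CL6 arrays. Without P19 replicates 4 and 5 these changes were 0.64 for Nrip1, -1.32 for Med1, -0.50 for Nr2f6 and -0.44 for Tbl1x, all of which passed. With CL6G52 replicate 1 left out as well, 3 of the 20 rose and 4 fell between P19CL6 and P19 (14.8% and 13% of all genes), and 2 rose and 3 fell in CL6G52 (3.99% and 5.81%). Single arrays further decided Nr6a1 in CL6G36 (lost without CL6G36 replicate 2), Crebbp (without P19CL6 replicate 4), Tbl1x in CL6G52 (without P19CL6 replicate 4 or 5 or CL6G52 replicate 3) and Med25 (without P19CL6 replicate 2 or 3 or CL6G36 replicate 2, 3 or 5). The Nr6a1 calls and those of Tbl1x, Crebbp, Med25, Nrip1, Med1 and Nr2f6 did not hold on the deposited scaling, while both Ncoa1 calls did. With the mean of a gene's probe sets in place of the brightest, the calls of Med1 and Nr2f6 were lost too. So were those of Nr6a1 in CL6G45 and Tbl1x in CL6G52.

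**Figure D4:**
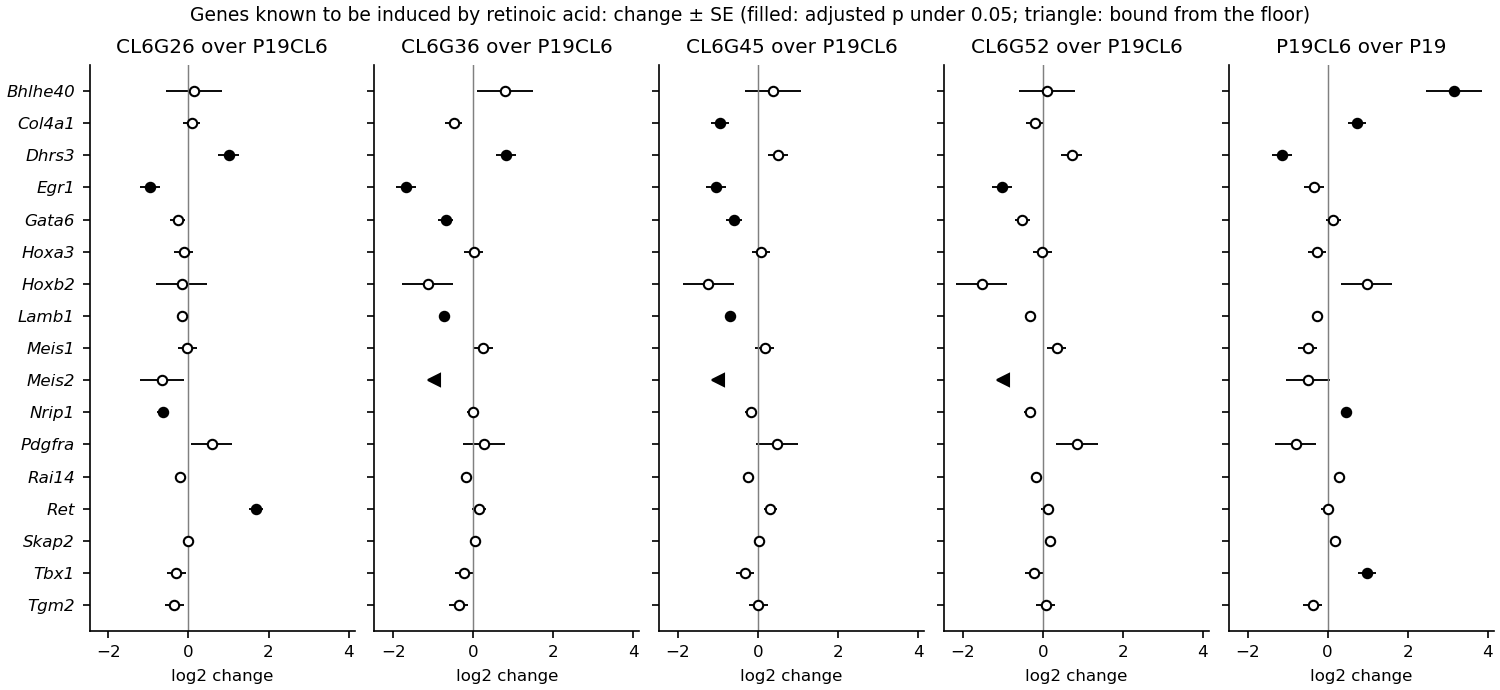
Log2 change ± SE of the 17 tested genes known to be induced by retinoic acid, in each subline over P19CL6 and in P19CL6 over P19; filled points have an adjusted p under 0.05. Triangles stand for Meis2, which was under the floor on every array of 3 sublines, at the change of -0.99 that the floor allows as a bound. Ret stands at 1.68 in CL6G26 and Bhlhe40 at 3.15 in P19CL6 over P19.

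The last list held 37 genes known to be induced by retinoic acid in embryonic or embryonal carcinoma cells, of which 17 were tested. Against P19CL6, 1 rose and 4 fell in CL6G36, 5 fell in CL6G45, 2 fell in CL6G52, and 2 rose and 2 fell in CL6G26. Over all genes 9.36% rose and 9.23% fell in CL6G36, 8.9% and 9.17% in CL6G45, 1.91% and 2.55% in CL6G52, and 0.606% and 1.11% in CL6G26. Without CL6G52 replicate 1 and P19 replicates 4 and 5 the list's counts were 2 and 5 in CL6G36 (12.4% and 12.1% of all genes), 0 and 7 in CL6G45 (11.8% and 12.2%), 1 and 3 in CL6G52 (3.99% and 5.81%), and 2 and 2 in CL6G26 (1.35% and 2.48%). The list's median change was -0.18 in CL6G36, CL6G45 and CL6G52 and -0.17 in CL6G26, beside medians between -0.01 and 0.01 over all genes; without the 3 arrays that stood apart it was -0.06 in CL6G52.

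Meis2, a homeobox gene, was under the floor on every CL6G36, CL6G45 and CL6G52 array and above it on every CL6G26, P19CL6 and P19 array. P19CL6 read 4.75, 5.14, 6.03, 5.89 and 6.21, so that each of these sublines was at least 1.99-fold lower, the P19CL6 mean being set against the floor (adjusted p in the fit 4.42e-05, 0.000134 and 0.00313 in CL6G36, CL6G45 and CL6G52). Egr1, an immediate early gene, fell in all 4 sublines, by 1.67 in CL6G36, 1.05 in CL6G45, 1.02 in CL6G52 and 0.96 in CL6G26. Of these the CL6G45 and CL6G52 calls were lost on the deposited scaling, that of CL6G52 also with only the 2 strains compared, the CL6G36 call held in every alternative tried, and the CL6G26 call (0.041) was lost in 12, among them those without P19CL6 replicate 1, 2, 3 or 4 or CL6G26 replicate 3, 4 or 5. Gata6, an endoderm regulator, fell by 0.69 in CL6G36 and by 0.60 in CL6G45 (lost without P19CL6 replicate 4 or 5 or CL6G45 replicate 3), and the laminin gene Lamb1 by 0.72 and 0.70; the collagen gene Col4a1 fell by 0.95 in CL6G45. Except for Lamb1 in CL6G36, these calls were lost on the deposited scaling. Ret, a receptor of the GDNF family of growth factors, read 7.16, 7.03, 6.96, 7.12 and 6.92 in CL6G26, against 4.90, 5.89, 5.53, 4.90 and 5.54 in P19CL6, a rise of 1.68 ± 0.17 (1.03e-07), with no overlap. Dhrs3 and Nrip1, given above, make up the other changes in the sublines.

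Between P19CL6 and P19, 4 of the induced genes rose and 1, Dhrs3, fell (3.58% and 2.67% of all genes). Bhlhe40, a repressor of transcription, read 7.24, 7.11, 7.41, 6.97 and 6.61 in P19CL6, against 1.33, 3.04, 1.09, 6.97 and 7.18 in P19. P19 replicates 1, 2 and 3 lay under the floor and replicates 4 and 5 inside the P19CL6 range. The change was 3.15 ± 0.70 (adjusted p 0.0122), or 1.47 with values raised to the floor; without P19 replicates 4 and 5 it was at least 5.47-fold, the P19CL6 mean being set against the floor. Tbx1, a T-box gene that retinoic acid is also known to lower in the embryonic pharynx, had the same split: 6.70, 6.86, 6.70, 6.84 and 6.63 in P19CL6, against 5.50, 4.76, 5.06, 6.62 and 6.83 in P19, a change of 0.99 ± 0.23 (0.0143), or 1.64 without P19 replicates 4 and 5. Nrip1 and Col4a1 (0.74, adjusted p 0.0397, or 1.28 without those 2 arrays) were the other 2 rises. The Bhlhe40, Tbx1 and Col4a1 calls were lost when any 1 of P19 replicates 1, 2 and 3 was left out, and that of Col4a1 also without any 1 P19CL6 array. On the deposited scaling the Tbx1 and Col4a1 calls were lost as well. Without P19 replicates 4 and 5 and CL6G52 replicate 1, 6 genes rose and 2 fell (14.8% and 13% of all genes).

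For the genes whose strain means spanned at least 1 log2 unit, the most similar patterns over the 30 arrays were sought among 903 genes that also spanned it. Crabp2 was closest to Denn2b (Pearson r 0.887), Pcolce (0.816) and Vwa5a (0.796). Cyp26a1 was closest to Slc39a4 (0.826), Sp5 (0.789) and Mixl1 (0.779); by rank correlation 0 of these 3 stayed among its closest 3, and 2 of 3 did for Crabp2. Over the 6 strain means the Cyp26a1 correlations were 0.973, 0.974 and 0.856. They rest partly on values under the floor, which carry little order. Sp5 averaged 1.81 in CL6G36, 1.92 in CL6G45 and 0.33 in CL6G52. Mixl1 averaged 4.21 in CL6G36, and Slc39a4 averaged 4.51 in CL6G36 and 4.59 in CL6G52, all under 4.61. The points share their arrays and normalization, and the arrays of a strain are not independent of one another.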

How the data were processed

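The deposited values are linear signal intensities per probe set made by the authors with GCOS, per the submitters' processing notes, without a version; no scaling target is named there, and CEL files were not used here. Control probe sets (64 per array type) were left out, signals under 1 were set to 1, and arrays were quantile normalized within type and put on the log2 scale, since the deposited array medians differed.

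The floor was the 40th percentile on MOE430A and the 60th on MOE430B, and 15068 and 12131 probe sets above it on at least 5 of 30 arrays were tested. A gene was read from its brightest tested probe set, MOE430A first. Tests used limma 3.58.1 in R 4.3.3: strain means over all 30 arrays of a type, a trend in eBayes, two-sided, Benjamini-Hochberg adjustment over the tested probe sets of an array type, threshold 0.05. A change is the first strain minus the second. The test was tried on simulated data.

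The genes, the 3 lists and the 5 marker lists were chosen with earlier results of these data known. From the 3 lists, the genes past the threshold with all arrays are named, and also Rxra, Rxrb and Rxrg. The 3 most correlated genes are named for members spanning 1 log2 unit. Replicate numbers did not pair samples: deviations of same-numbered arrays correlated between -0.154 and 0.112. Gene names are those of the platform annotation. Figures used matplotlib 3.10.9.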

Additional observations from a re-analysis of the deposited data

Results flagged for a closer look

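In 6 of 66 groups of 5 arrays, 1 array stood far from the others of its strain; chance alone marks about 1 group in 20. The gap to the nearest array, as a share of the group's whole range, was 0.863 for Crabp2 in CL6G52 replicate 1 (5.71, against 7.23 to 7.47 in the other 4) and 0.877 for Rarg, probe set 1419415_a_at, in P19CL6 replicate 2 (7.21, against 7.51 to 7.55). It was 0.8 for Rdh10 in P19 replicate 5 (6.96, against 6.31 to 6.44). The other groups lay under the floor on every array. There it was 0.778 for Rarb in CL6G36 replicate 4 (3.51, against 4.14 to 4.31), 0.798 for Aldh1a2 in CL6G45 replicate 3 and 0.725 for Stra6 in CL6G52 replicate 4.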

How the results depend on the processing

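The 105 member differences over 15 pairs of strains were refitted under 43 alternatives, those of Crabp1 and Rarb under 42 because a stricter filter left them untested. Of the 29 that passed, 14 passed under all of them and 15 were lost under at least 1, 8 of these only on the deposited scaling; 0 reversed. On the deposited scaling the median of all genes itself shifted by 0.18 in CL6G26 and 0.11 in CL6G45 against P19CL6. Counts of genes past the threshold there were 1 in CL6G36, 1 in CL6G45, 3 over the 6 strains and 15 over all pairs. With only the 2 strains compared, 1 passed in CL6G26. Without P19 replicates 4 and 5, 2 passed in P19CL6 against P19, and likewise 2 when CL6G52 replicate 1 was also left out, which gave 1 in CL6G26. Leaving out 1 array at a time gave 0 to 1 for P19CL6 against P19 (1 without P19 replicate 4 or 5), 0 in CL6G26, 2 to 4 in CL6G36, 2 to 4 in CL6G45 (2 without P19CL6 replicate 5), 1 in CL6G52 and 4 to 5 over the 6 strains. The cause was not tested. With the replicate block the counts were 0, 0, 3, 4 and 1 for P19CL6 against P19 and CL6G26, CL6G36, CL6G45 and CL6G52 against P19CL6, 5 over the strains and 30 over all pairs; the numbers pair no samples. By rank correlation 0 of the 3 genes nearest to Cyp26a1 were the same. Signals near the floor limit Crabp1, Rarb, Stra6, Aldh1a2 and the low Cyp26a1 values.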
